A study of Mus musculus with 46 samples.

Results

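Mouse libraries labelled Ics that were made 6 h after stimulation were set against those made at 3 h, to see which functions come late in this response and which early ones decay. The members were taken from the titles and the condition field: 4 libraries at 6 h and 4 at 3 h, 8 of the 46 libraries of the series. The series is bulk RNA sequencing from mice with a model of mucous membrane pemphigoid, in which antibodies against laminin 332 of the basement membrane cause blisters, and most of its libraries compare mice with and without intravenous immunoglobulin. The Ics libraries are a separate time course, titled stimulated at 6 h and 3 h and unstimulated at 0 h. The labels give Ics as the tissue, do not expand it and name no cell type, strain, age or sex for it. The extraction protocol, given alike for every library of the series, names neutrophils and monocytes from bone marrow, and whole blood, although the series also holds skin libraries. Neither the stimulus nor its dose is stated, and there are no unstimulated libraries at 3 h or 6 h, so what the stimulus did cannot be told apart from what time alone did. The replicate numbers 1 to 4 are in the titles, but nothing says that the libraries came from separate animals or cultures. Each p-value therefore measures only the spread between these libraries. A further label named treatment gives another time or state than the title in 7 of the 8 libraries and was not used.

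The 8 libraries held 25372592 to 29502785 estimated counts each, with 15527 to 16018 genes at 5 counts or more, and no pair of the 12 Ics libraries was identical. Levels are given in CPM, counts scaled to a common library total, with TMM scaling factors, which correct for differences in RNA composition. A change is the log2 difference of 6 h minus 3 h ± its standard error (SE), with 4 and 4 libraries, from one fit of edgeR over the 12 Ics libraries. "Rose" and "fell" stand for an adjusted p (Benjamini-Hochberg, across every gene tested) under 0.05. Mature neutrophil markers summed to 60233 to 66113 CPM at 6 h and 70750 to 83673 CPM at 3 h, counted from library totals alone, with S100a8 and S100a9 in every library. The 13 monocyte and macrophage markers summed to 906 to 972 CPM at 6 h and 910 to 953 CPM at 3 h, nearly all of it from Csf1r, Ly6c2 and Adgre1, while Ccr2, F13a1 and Mrc1 stayed under 2 CPM. T and NK cell markers summed to 6.84 to 8.85 CPM at 6 h and 14.8 to 19.3 CPM at 3 h, most of it Cd3d. Cd3e, Cd4 and Trac were at most 0.177, 0.464 and 0.677 CPM, and the NK markers Ncr1 and Gzma had no count in any of the 8. Red cell precursor markers summed to 11.5 to 26.5 CPM at 6 h and 23.6 to 63.6 CPM at 3 h. Platelet markers summed to 45.3 to 58.0 CPM at 6 h and 29.5 to 39.9 CPM at 3 h, most of it Itgb3. Stromal and epithelial markers summed to 30.1 to 42.1 CPM at 6 h and 14.4 to 19.4 CPM at 3 h, most of it Col1a1, and Krt5 and Krt14 had no count. In bulk RNA, fewer cells of a type and less of an RNA per cell cannot be told apart.

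Stimulated myeloid cells are known to respond in waves. Immediate early and NF-kB target genes are switched on within minutes to hours, and many of them code inhibitors of the same pathways or have short-lived messenger RNA. Other programmes, such as those of the oxidant sensor Nrf2, the sterol sensor SREBP2, the lysosomal regulator TFEB and the tumour suppressor p53, respond to the state that the cell has reached.

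Between 3 h and 6 h, 3067 genes rose and 3050 fell among 14996 tested, which is 20.5% and 20.3%, or 40.8% in either direction. At least 2-fold changes were fewer, with 524 genes that rose (3.49%) and 806 that fell (5.37%). The median change of all genes tested was -0.03. With library totals alone as the scaling, 3904 genes rose and 2427 fell, so that 61.7% of the calls were rises, against 50.1% with TMM factors. The 6 h libraries lay above all 3 h libraries for 2831 genes and below all of them for 2740. Of 44 function lists, sterol synthesis had the highest share of members that rose and feedback inhibitors of MAP kinases the highest share that fell.

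**Figure D1:**
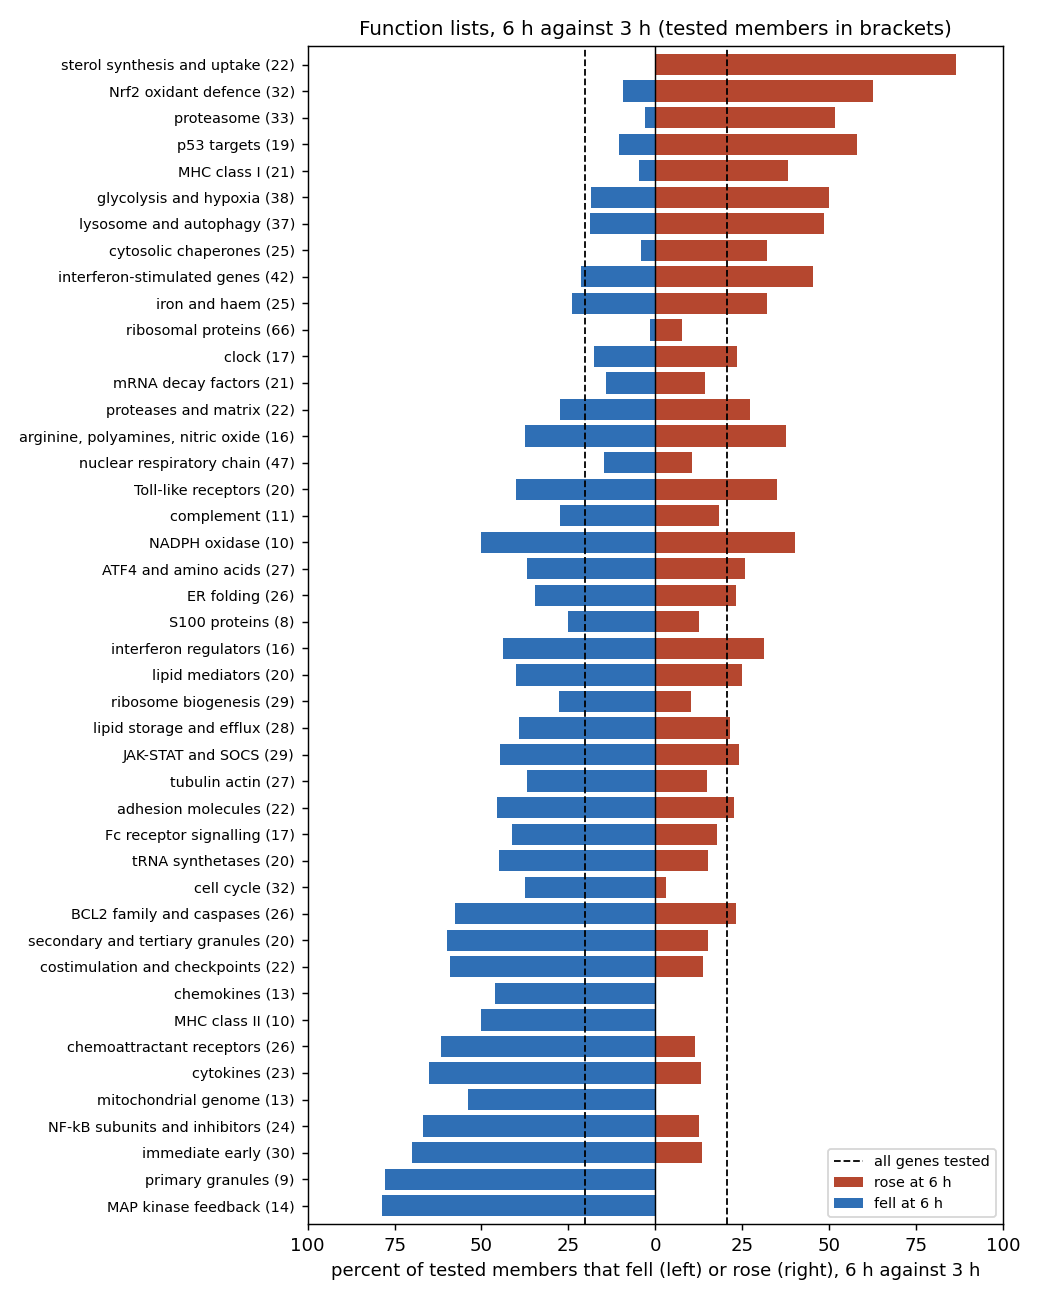
Percent of the tested members of each of 44 function lists that rose (red, right) or fell (blue, left) at 6 h against 3 h, with the number of tested members in brackets. The dashed lines mark 20.5% and 20.3% of all 14996 genes tested, and the lists run from sterol synthesis at the top, with 86.4% risen, to MAP kinase feedback at the bottom, with 78.6% fallen.

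The most uniform late change was in sterol synthesis. The SREBP2 pathway senses the cholesterol of the endoplasmic reticulum and drives the enzymes that make sterols. Of its 22 listed genes, all tested, 19 rose (86.4%, against 20.5% of all genes tested) and 0 fell, 10 of them at least 2-fold, with a median change of 0.98. Sqle (chromosome 15, 59315077 to 59331192 in GRCm38.p6, the build of all positions given), the squalene epoxidase that catalyses a rate-controlling step, had 19.2, 16.6, 17.0 and 15.6 CPM in the 6 h libraries, against 2.75, 2.35, 3.63 and 2.39 CPM in the 3 h libraries. All 6 h libraries were above all 3 h libraries, a change of 2.62 ± 0.140 (adjusted p = 5.93e-09), and the unstimulated libraries averaged 4.25 ± 0.272 CPM (SD). Fdft1, the squalene synthase, had 41.04, 35.8, 40.7 and 33.6 CPM at 6 h, against 11.8, 10.4, 10.1 and 9.57 CPM at 3 h, a change of 1.85 ± 0.101 (adjusted p = 6.98e-09). Fdps, which makes the farnesyl diphosphate that Fdft1 uses, changed by 2.12 ± 0.144, and Idi1 one step before it by 1.46 ± 0.110, both named after their values were seen. The groups did not overlap for any of these 4 enzymes.

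Genes that control the pathway changed too. The differences of 6 h minus 3 h and of 3 h minus 0 h share the 3 h libraries and are given side by side without a test between them. Insig1, a target of the pathway that retains SREBP2 in the endoplasmic reticulum and was named after its value was seen, was lower at 3 h than at either other time, with 29.2 ± 2.27 CPM at 0 h, 16.2 ± 1.30 CPM at 3 h and 37.7 ± 3.36 CPM at 6 h. Hmgcs1, the synthase at the entry of the pathway, had 118, 107, 105 and 104 CPM at 6 h, against 58.9, 53.7, 54.7 and 51.9 CPM at 3 h, a change of 0.99 ± 0.0627 (adjusted p = 2.96e-08). It had already risen by 0.54 at 3 h against 0 h (adjusted p = 4.59e-06). The 3 members that did not pass, named after their values were seen, were Srebf2, the gene of SREBP2 itself, at 0.08 ± 0.0542, Mvd at 0.14 ± 0.0599 and Insig2 at -0.10 ± 0.175. Over the alternatives the adjusted p was 0.0203 to 0.441 for Srebf2, 0.00635 to 0.207 for Mvd and 0.483 to 0.956 for Insig2, and 21 members rose with library totals alone.

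The proximal promoter of Hmgcs1 is shown because it was the only one in the sterol list that held the sterol regulatory element searched for. Sequences are from RefSeq on GRCm38.p6, 5′ to 3′ on the strand of the gene, and the motif TCACNCCAC was looked for on both strands in the 250 bases before each annotated start. It was in 1 of 15 sterol genes with such a window (6.67%) and in 1.22% of all 27025 genes with one. The stretch is chr13:119690179-119690257, plus strand, with the match in capitals.
Hmgcs1: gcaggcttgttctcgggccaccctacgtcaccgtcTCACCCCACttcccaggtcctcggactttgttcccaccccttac
The match is a description of letters and not of a bound site.

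**Figure D2:**
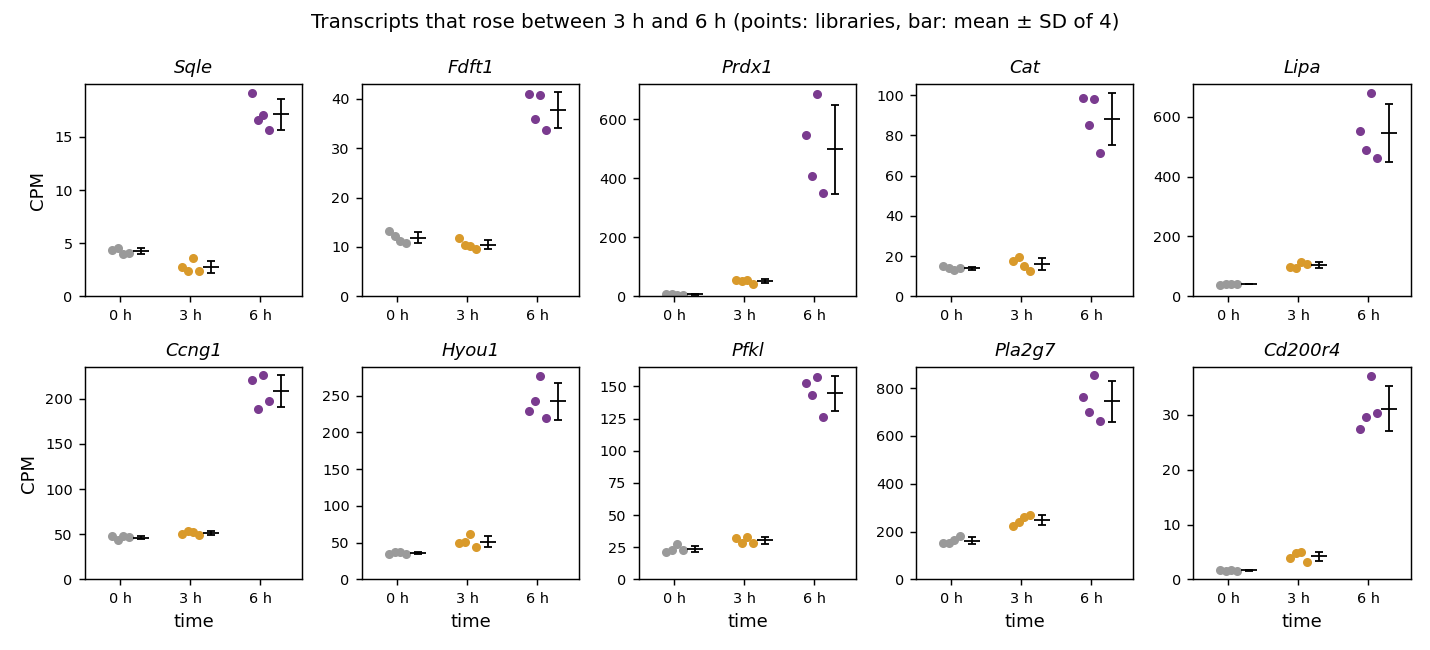
CPM of 10 transcripts that rose at 6 h against 3 h in each library at 0 h, 3 h and 6 h, with the mean and SD of 4 libraries as a bar beside the points. In all 10 the 6 h points lie above the 3 h points, and Sqle, Cat and Ccng1 show their increase almost wholly after 3 h.

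Oxidant defence continued to rise, with part of it new at 6 h. Nrf2 is a transcription factor that is degraded in resting cells and released when its sensor Keap1 is modified by oxidants or electrophiles. Of 35 listed targets and regulators, 32 were tested. Of these, 20 rose (62.5%, against 20.5% of all genes tested) and 3 fell (9.38%, against 20.3%). The median change was 0.42, and 9 rose at least 2-fold. Prdx1 (chromosome 4, 116685544 to 116700822), a peroxiredoxin that removes hydrogen peroxide, had 547, 409, 686 and 349 CPM at 6 h, against 54.9, 52.6, 54.8 and 41.6 CPM at 3 h. The 6 h libraries differed among themselves, with replicate 3 highest and replicate 4 lowest, yet all were above the 3 h libraries, at a change of 3.29 ± 0.191 (adjusted p = 1.18e-08). Cat (chromosome 2, 103453849 to 103485160), catalase, had 98.6, 85.2, 98.2 and 71.3 CPM at 6 h, against 17.6, 19.5, 15.0 and 12.6 CPM at 3 h. The groups did not overlap, the change was 2.45 ± 0.131 (adjusted p = 6.1e-09), and Cat had not passed at 3 h against 0 h (0.20 ± 0.131, adjusted p = 0.206). Gstm1, a glutathione transferase named after its value was seen, had the same form, with 9.74 ± 2.27 CPM at 0 h, 7.96 ± 1.54 CPM at 3 h and 34.0 ± 10.6 CPM at 6 h.

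Other members climbed in both intervals. Nqo1 (chromosome 8, 107388225 to 107403206), a quinone reductase, had 221, 203, 274 and 190.3 CPM at 6 h, against 48.7, 52.2, 42.8 and 45.9 CPM at 3 h, a change of 2.23 ± 0.101 (adjusted p = 1.33e-09) after 4.09 between 0 h and 3 h. Gclc, the catalytic subunit of the first enzyme of glutathione synthesis, changed by 1.53 ± 0.172, and Abcc1, which exports glutathione conjugates, by 1.52 ± 0.118, both named after their values were seen. Other members did not pass between 3 h and 6 h. Srxn1, which repairs overoxidised peroxiredoxins, had 272, 244, 367 and 201 CPM at 6 h, against 259, 253, 278 and 248 CPM at 3 h, and did not pass at 0.07 ± 0.158 (adjusted p = 0.776). Its groups overlapped, and the sign turned to -0.12 without 6 h replicate 3, with an adjusted p of 0.358 to 0.991 over all alternatives. The cystine importer gene Slc7a11 was at -0.14 ± 0.0988 (adjusted p = 0.288) and the thioredoxin reductase gene Txnrd1 at 0.25 ± 0.119 (adjusted p = 0.106, and 0.021 to 0.374 over the alternatives), both named after their values were seen. The 3 members that fell were the peroxiredoxin Prdx6 at -0.49 ± 0.0605, the microsomal transferase Mgst1 at -0.31 ± 0.0709 and the glutathione peroxidase Gpx1 at -0.26 ± 0.0792. For Gpx1, the adjusted p was 0.0502 to 0.119 when any 1 of 3 h replicate 1, 3 h replicate 2, 3 h replicate 4, 6 h replicate 2 and 6 h replicate 3 was left out, and 0.00136 to 0.119 over all alternatives.

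Haem and iron genes did not move as one. Blvrb, which reduces biliverdin after haem has been opened, had 91.3, 71.8, 106 and 61.9 CPM at 6 h, against 14.4, 17.2, 14.4 and 14.2 CPM at 3 h, a change of 2.46 ± 0.183 (adjusted p = 1.32e-07). Hmox1, the haem oxygenase that acts before it, had 1283, 1149, 1727 and 943 CPM at 6 h, against 703, 796, 896 and 554 CPM at 3 h, with no overlap and a change of 0.79 ± 0.169 (adjusted p = 0.00173). Slc48a1, which moves haem out of the endolysosome, changed by 1.08 ± 0.132. Of the ferritin chains, the light chain gene Ftl1 had 12225, 10765, 14962 and 9867 CPM at 6 h, against 4049, 4329, 4431 and 3886 CPM at 3 h, at 1.52 ± 0.101 (adjusted p = 4.6e-08). Fth1, the gene of the heavy chain that oxidises iron and named after its value was seen, had 11001, 9167, 12064 and 8771 CPM at 6 h, against 10703, 11279.7, 10929 and 9535 CPM at 3 h, overlapped and did not pass at -0.050 ± 0.0928 (adjusted p = 0.705). Ferritin and peroxiredoxin genes have processed pseudogenes, so their reads may be split uncertainly. Tfrc, the receptor for iron-loaded transferrin, changed by 1.44 ± 0.151, with 66.6 ± 5.31 CPM at 6 h and 24.5 ± 4.34 CPM at 3 h. Steap4, a metalloreductase, went the other way, with 2.76 ± 0.756 CPM at 6 h and 13.0 ± 3.72 CPM at 3 h (-2.23 ± 0.318, adjusted p = 6.12e-05). Over the whole iron and haem list, 8 of 25 tested genes rose (32.0%) and 6 fell (24.0%), with a median of -0.05.

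**Figure D3:**
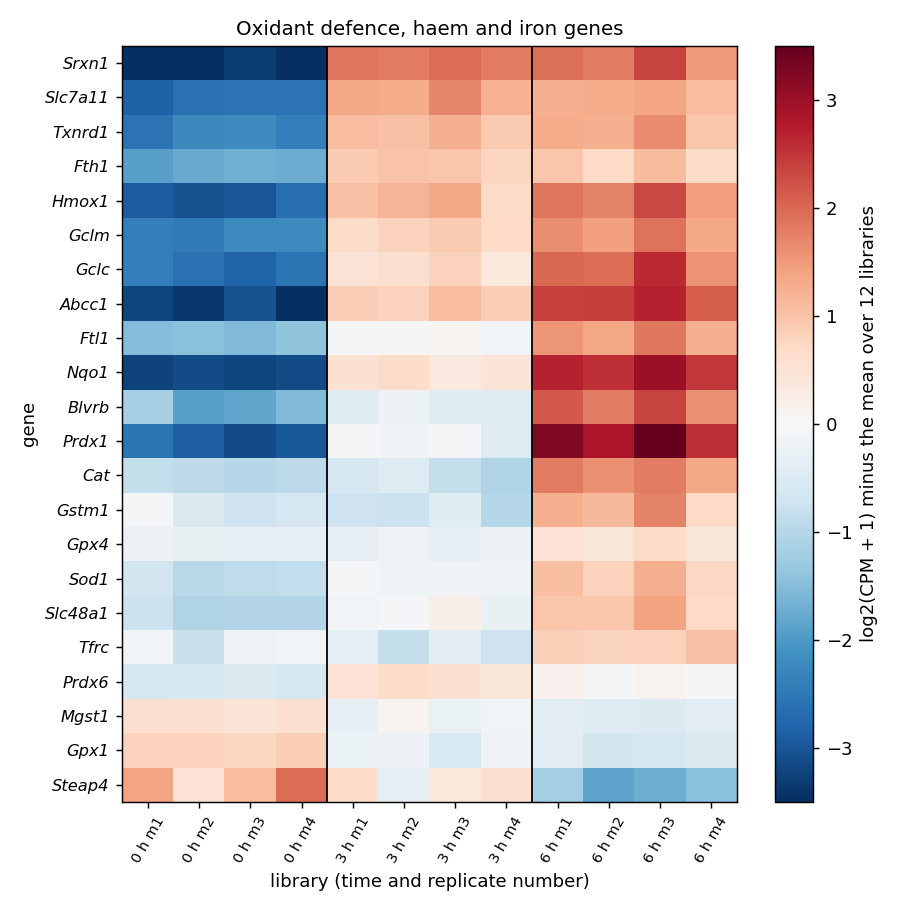
Log2(CPM + 1) of 22 oxidant defence, haem and iron genes in each of the 12 libraries, minus the gene's mean over them, with columns in the order 0 h, 3 h and 6 h. Srxn1 to Fth1 at the top have about the same colour at 3 h and 6 h, Prdx1, Cat and Gstm1 turn red at 6 h, and the 6 h column of replicate 3 is the darkest of its group in most of the rising genes.

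The promoter of Prdx1 is given because Prdx1 had the largest rise of the Nrf2 list and holds the antioxidant response element searched for, TGACNNNGC on either strand. That motif was in 8 of the 29 listed genes with a RefSeq window (27.6%) and in 11.5% of all genes with one. The stretch is chr4:116685431-116685509, plus strand, GRCm38.p6, with the match, read on the opposite strand, in capitals.
Prdx1: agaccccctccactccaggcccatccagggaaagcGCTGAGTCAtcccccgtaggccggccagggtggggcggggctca

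Many lysosomal genes rose as well. TFEB drives many lysosomal hydrolases and membrane proteins, and the lysosome frees cholesterol and iron from what a cell has taken up. Of 37 listed genes, all tested, 18 rose (48.6%) and 7 fell (18.9%), with a median of 0.16. Lipa (chromosome 19, 34492318 to 34527474), the acid lipase that cleaves cholesteryl esters, had 554, 489, 678 and 462 CPM at 6 h, against 99.6, 93.9, 116 and 107 CPM at 3 h. No library of one group reached the other, and the change was 2.39 ± 0.105 (adjusted p = 1.23e-09). Npc2, which hands the freed cholesterol on, had 174, 163, 181 and 165 CPM at 6 h, against 71.1, 79.0, 69.6 and 68.4 CPM at 3 h, at 1.25 ± 0.0570 (adjusted p = 1.48e-09), and was at 69.4 ± 2.19 CPM at 0 h. Its partner Npc1 changed by 1.23 ± 0.0999, the protease gene Ctsb by 1.13 ± 0.132 and the lysosomal calcium channel gene Mcoln1 by 1.16 ± 0.102, all named after their values were seen. Ctsd, cathepsin D, had 3022, 2727, 3464 and 2738 CPM at 6 h, against 1314, 1384, 1466 and 1282 CPM at 3 h (1.13 ± 0.0742, adjusted p = 3.9e-08). Unlike Npc2, Lipa, Ctsd and Ctsb had already risen at 3 h against 0 h, by 1.34, 0.94 and 1.11. From library totals alone, the list summed to 5009 to 5110 CPM at 0 h and 7363 to 8314 CPM at 3 h. At 6 h it summed to 10627 to 12520 CPM.

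Hexa, the alpha chain of beta-hexosaminidase, had 365, 354, 398 and 372 CPM at 6 h, against 211, 206, 208 and 206 CPM at 3 h (0.84 ± 0.0446, adjusted p = 5.82e-09). The groups did not overlap. Lipid storage and export did not move as one: of 28 tested genes 6 rose (21.4%) and 11 fell (39.3%). Plin3, a coat protein of lipid droplets, changed by 1.03 ± 0.0579, while Dgat2, which makes triglyceride, changed by -0.93 ± 0.0550. Apoe, which carries exported cholesterol, had 3.67, 3.97, 5.45 and 5.57 CPM at 6 h, against 17.3, 15.4, 21.8 and 25.4 CPM at 3 h (-2.10 ± 0.176, adjusted p = 4.1e-07). The cholesterol exporter genes Abca1 and Abcg1, named after their values were seen, changed by -0.92 ± 0.132 and -0.64 ± 0.0932.

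Targets of p53 were another group that rose, some of them already before 3 h. p53 is held low by Mdm2 and, once stable, induces genes of cell cycle arrest and death. Of 20 listed targets, 19 were tested, 11 rose (57.9%) and 2 fell (10.5%), 7 rose at least 2-fold, and the median was 0.43. Ccng1 (chromosome 11, 40748552 to 40755311), cyclin G1, had 221, 189, 226 and 198 CPM at 6 h, against 50.3, 53.2, 52.3 and 48.8 CPM at 3 h. The groups were far apart, at 2.03 ± 0.0648 (adjusted p = 7.75e-11), with 46.3 ± 1.93 CPM at 0 h. Cdkn1a, the kinase inhibitor p21, had 74.7, 54.5, 69.5 and 57.3 CPM at 6 h, against 18.6, 17.3, 15.4 and 16.1 CPM at 3 h (1.93 ± 0.105, adjusted p = 7.28e-09). Bax, which opens the outer mitochondrial membrane, had 95.0, 79.8, 117 and 78.6 CPM at 6 h, against 28.8, 29.0, 31.5 and 26.7 CPM at 3 h (1.68 ± 0.110, adjusted p = 3.83e-08). Cdkn1a and Bax had already risen at 3 h against 0 h, by 2.39 and 1.75, with 3.20 ± 0.224 and 8.59 ± 0.150 CPM at 0 h. Ccng1 had not passed in that interval (0.14, adjusted p = 0.0717). Aen, a nuclease named after its value was seen, changed by 1.79 ± 0.190 and Gtse1, a partner of p53, by 1.58 ± 0.140, but Mdm2, also named after its value was seen, only by 0.20 ± 0.0564. At 3 h against 0 h, Aen had not passed (0.29, adjusted p = 0.235) and Gtse1 had been lower (-0.56). The death receptor gene Fas fell at -0.37 ± 0.0743 and so did Btg2 at -0.16 ± 0.0508, where the adjusted p was 0.0534 to 0.144 when any 1 of 3 h replicate 1, 3 h replicate 2, 3 h replicate 4, 6 h replicate 1, 6 h replicate 2 and 6 h replicate 4 was left out, and 0.00384 to 0.22 over all alternatives.

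Genes that decide on cell death moved both ways. Of 26 tested members of the BCL2 family, caspases and their inhibitors, 6 rose (23.1%) and 15 fell (57.7%), with a median of -0.37. Bcl2l1, which codes the survival protein BCL-XL, had 33.6, 28.3, 37.6 and 33.3 CPM at 6 h, against 60.8, 57.6, 61.6 and 53.9 CPM at 3 h (-0.82 ± 0.0788, adjusted p = 1.53e-06). Mcl1, a survival protein on which neutrophils depend, changed by -0.15 ± 0.0545 with overlapping groups, and the adjusted p was 0.0613 to 0.274 when any 1 of 3 h replicate 1, 3 h replicate 2, 3 h replicate 3, 3 h replicate 4, 6 h replicate 1, 6 h replicate 2 and 6 h replicate 4 was left out, and 0.0103 to 0.305 over all alternatives. Bcl2a1b changed by -1.16 ± 0.127, both genes being named after their values were seen, and reads of the near-identical Bcl2a1 copies cannot be assigned with certainty. Casp4, the caspase that binds lipopolysaccharide, changed by -1.07 ± 0.103. Besides Bax, the BH3-only activators Bbc3 and Pmaip1 rose, at 0.61 ± 0.110 and 0.51 ± 0.134, named after their values were seen.

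**Figure D4:**
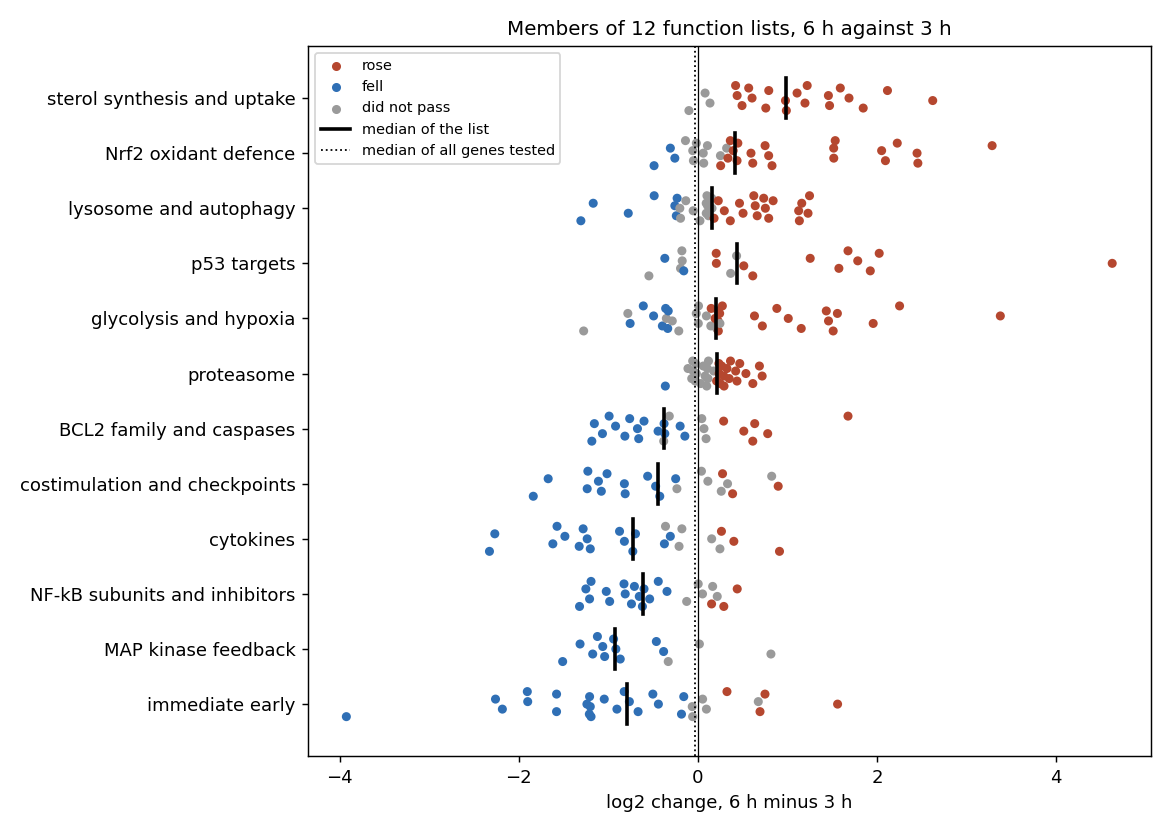
Log2 change of 6 h minus 3 h for each tested member of 12 function lists, coloured by whether the gene rose, fell or did not pass, with the list's median as a bar. Sterol genes lie almost wholly right of 0, MAP kinase feedback, NF-kB and immediate early genes mostly left of it, and the proteasome genes are narrowly spread around a median of 0.21.

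Glycolysis and hypoxia-responsive genes rose in part. Of 38 tested genes 19 rose (50%), 9 at least 2-fold, and 7 fell (18.4%), with a median of 0.20. Pfkl (chromosome 10, 77986947 to 78010083), the liver type of phosphofructokinase, had 152, 143, 157 and 126 CPM at 6 h, against 31.9, 28.3, 33.1 and 28.2 CPM at 3 h (2.25 ± 0.0898, adjusted p = 5.39e-10). The platelet type Pfkp, named after its value was seen, changed by -0.76 ± 0.106, with 29.9 ± 3.53 CPM at 6 h and 50.6 ± 5.72 CPM at 3 h. Bnip3, a hypoxia-inducible receptor for mitophagy, had 41.7, 47.6, 47.3 and 42.7 CPM at 6 h, against 14.4, 8.69, 12.5 and 10.5 CPM at 3 h (1.96 ± 0.128, adjusted p = 3.95e-08). It and Egln3, an oxygen-sensing hydroxylase at 1.56 ± 0.156, had been lower at 3 h than at 0 h, by log2 values of -0.71 and -0.77. Ankrd37, a hypoxia target of low level, had 7.67, 6.20, 8.10 and 3.93 CPM at 6 h, against 0.668, 0.665, 0.475 and 0.656 CPM at 3 h, at 3.38 ± 0.349. Aldoa and Pgam1, enzymes of glycolysis, changed by 1.01 ± 0.0747 and 0.88 ± 0.0622. Ldha, lactate dehydrogenase, and the lactate exporter gene Slc16a3 fell, at -0.49 ± 0.0609 and -0.40 ± 0.0586. Egln3 and Slc16a3 are named after their values were seen.

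Protein quality control rose by small amounts. Of 33 proteasome subunits, all tested, 17 rose (51.5%) and 1 fell, none at least 2-fold, with a median of 0.21. Psmb5, a catalytic subunit, had 115, 102, 133 and 102 CPM at 6 h, against 69.8, 75.4, 63.7 and 65.9 CPM at 3 h (0.72 ± 0.0821, adjusted p = 7.64e-06). Psmc5 changed by 0.69 ± 0.0943, Psmd1 by 0.44 ± 0.0756 and the deubiquitinase Psmd14, the member that fell, by -0.36 ± 0.0726. Of 25 tested cytosolic chaperones 8 rose (32.0%) and 1 fell, and Ahsa1, an activator of HSP90, changed by 0.50 ± 0.0680 and Cct4 of the chaperonin by 0.42 ± 0.0569. Hspa1a, an inducible HSP70 whose copy Hspa1b shares reads, had 14.2, 9.18, 18.1 and 9.54 CPM at 6 h, against 14.4, 7.55, 7.87 and 8.30 CPM at 3 h, overlapped and did not pass at 0.42 ± 0.238 (adjusted p = 0.182, and 0.017 to 0.531 over the alternatives). The member that fell was Hsph1, at under 4 CPM in all 8 libraries, and the adjusted p was 0.0506 to 0.242 when any 1 of 3 h replicate 1, 6 h replicate 1, 6 h replicate 2, 6 h replicate 3 and 6 h replicate 4 was left out, and 0.0207 to 0.242 over all alternatives. Its change of -0.99 was -0.39 without 3 h replicate 1.

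Chaperones of the endoplasmic reticulum did not share this. Of 26 tested genes 6 rose (23.1%) and 9 fell (34.6%), close to all genes for the rises. Hyou1 (chromosome 9, 44379490 to 44392369), a large chaperone of that compartment that hypoxia also induces, had 229, 243, 277 and 220.0 CPM at 6 h, against 49.99, 50.3, 61.9 and 43.7 CPM at 3 h (2.24 ± 0.0979, adjusted p = 1.18e-09). Hspa5, its partner BiP, had 349.7, 317, 362 and 307 CPM at 6 h, against 363, 396, 391 and 315 CPM at 3 h, overlapped and did not pass at -0.13 ± 0.0844 (adjusted p = 0.23). Xbp1 and Herpud1, central to the unfolded protein response, fell, at -0.71 ± 0.0813 and -0.56 ± 0.0794.

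Interferon-stimulated and class I genes rose in part. Of 42 tested interferon-stimulated genes 19 rose (45.2%) and 9 fell (21.4%), with a median of 0.33. As a sum the list declined, from 4975 to 5465 CPM at 0 h to 3762 to 3938 CPM at 3 h, from library totals alone. At 6 h it summed to 3157 to 3318 CPM, and Slfn4 was a large part of the sums at 3 h and 6 h. Oasl1 had 14.3, 13.6, 15.8 and 12.6 CPM at 6 h, against 6.68, 5.20, 6.01 and 7.72 CPM at 3 h (1.13 ± 0.120, adjusted p = 3.5e-06), and had been 13.9 ± 0.582 CPM at 0 h. Slfn4, of the schlafen family, went against them, with 2008 ± 125 CPM at 6 h and 2987 ± 128 CPM at 3 h (-0.57 ± 0.0565). Irf9 and Stat2, which form the factor that drives these genes, changed by 0.92 ± 0.0785 and 0.80 ± 0.112, while Irf1 changed by -1.21 ± 0.0636. Of 21 class I presentation genes 8 rose (38.1%) and 1 fell. H2-T22 changed by 1.19 ± 0.112 and H2-T23, the ligand of an inhibitory NK cell receptor, by 0.89 ± 0.0648, and reads of related class I genes can be shared. Irf9, H2-T22 and H2-T23 had been lower at 3 h than at 0 h, by log2 values of -0.53, -0.52 and -0.46. At 6 h they were above 0 h, by 0.39, 0.68 and 0.44. Nlrc5, the class I transactivator, was the member that fell, at -0.56 ± 0.167, and the adjusted p was 0.063 without 3 h replicate 3 and 0.00258 to 0.063 over all alternatives.

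The stretch before Rsad2 is shown because Rsad2, an antiviral enzyme at 1.36 ± 0.0949, had the largest rise of the interferon list and holds the interferon-stimulated response element searched for, GAAANNGAAA on either strand. That motif was in 20 of 36 listed genes with a window (55.6%) and in 3.46% of all genes with one. The stretch is chr12:26456528-26456607, minus strand, GRCm38.p6, with the match, read on the opposite strand, in capitals.
Rsad2: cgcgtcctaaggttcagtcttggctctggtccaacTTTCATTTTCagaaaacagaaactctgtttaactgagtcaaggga

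Other large rises came from several functions. Cd200r4, of the CD200 receptor family, had 27.4, 29.6, 37.0 and 30.4 CPM at 6 h, against 3.90, 4.77, 4.93 and 3.20 CPM at 3 h (2.89 ± 0.141, adjusted p = 2.9e-09). Ptgr1, a reductase of prostaglandins and of lipid aldehydes, had 109, 95.4, 144 and 73.3 CPM at 6 h, against 17.6, 16.6, 15.0 and 12.9 CPM at 3 h (2.76 ± 0.176, adjusted p = 3.02e-08), after no passed change at 3 h against 0 h (0.08 ± 0.176, adjusted p = 0.724). Abcc3, an exporter of organic anion conjugates, had 9.52, 7.83, 12.2 and 7.54 CPM at 6 h, against 1.60, 1.02, 0.778 and 1.58 CPM at 3 h (2.89 ± 0.235). Slc24a3, a sodium and calcium exchanger, had 3.84, 4.57, 7.01 and 4.92 CPM at 6 h, against 0.520, 0.861, 0.951 and 1.003 CPM at 3 h (2.605 ± 0.308), and Ppfibp2 and Mex3d changed by 2.92 ± 0.268 and 2.24 ± 0.202. Cxcr3, a chemokine receptor best known on T cells, had 3.39, 4.36, 3.78 and 5.10 CPM at 6 h, against 0.520, 0.509, 0.475 and 0.579 CPM at 3 h (2.98 ± 0.210, adjusted p = 7.85e-08). The sum of T and NK markers, most of it Cd3d, was lower at 6 h than at 3 h, and the part of these markers in the Cxcr3 result was not tested. Pla2g7, which inactivates platelet-activating factor, had 763, 699, 854 and 661 CPM at 6 h, against 223, 242, 259 and 271 CPM at 3 h (1.58 ± 0.0873, adjusted p = 8.12e-09). Fcgr2b, the inhibitory receptor for immunoglobulin G, had 203, 211, 242 and 189 CPM at 6 h, against 122, 116, 119.5 and 95.4 CPM at 3 h (0.90 ± 0.0912), and no group above overlapped its partner.

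Most immediate early regulators fell, some from a raised level and some not. Of 30 listed genes, all tested, 21 fell (70.0%), 13 of them at least 2-fold, and 4 rose (13.3%), with a median of -0.79. From library totals alone, the list summed to 7845 to 9081 CPM at 0 h and 6906 to 7730 CPM at 3 h. At 6 h it summed to 6004 to 7001 CPM, so as a sum it was not raised at 3 h. Nr4a3 (chromosome 4, 48045153 to 48086447), an orphan nuclear receptor induced without new protein synthesis, had 9.97, 9.08, 12.5 and 7.61 CPM at 6 h, against 154, 132, 197 and 111 CPM at 3 h. All 6 h libraries were far below, at -3.93 ± 0.222 (adjusted p = 9.37e-09), and still above the 1.87 ± 0.843 CPM of 0 h (2.38 for 6 h minus 0 h, adjusted p = 2.74e-06). Nr4a1 had 108, 105, 122 and 84.0 CPM at 6 h, against 411, 392, 454 and 312 CPM at 3 h (-1.91 ± 0.121, adjusted p = 2.96e-08), and averaged 102 ± 9.41 CPM at 0 h. Egr3 had 5.04, 5.39, 4.67 and 6.19 CPM at 6 h, against 24.0, 26.4, 31.3 and 20.4 CPM at 3 h (-2.26 ± 0.179), and averaged 5.80 ± 1.51 CPM at 0 h. Neither Nr4a1 nor Egr3 passed at 6 h against 0 h, with adjusted p of 0.83 and 0.583. Egr1, at -1.20 ± 0.216, and Fosb, named after its value was seen, at -2.18 ± 0.231, had already averaged 59.9 ± 16.5 and 52.8 ± 14.4 CPM at 0 h. Egr1 had not passed at 3 h against 0 h (adjusted p = 0.529). Fosb had already fallen in that interval (-2.25, adjusted p = 2.83e-07), to 11.1 ± 2.78 CPM at 3 h.

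The members that rose were parts of the AP-1 and related families. Jun had 364, 327, 464 and 299.8 CPM at 6 h, against 121, 110.4, 152 and 110.4 CPM at 3 h (1.56 ± 0.159, adjusted p = 2.5e-06), and Fos had 155, 185, 199 and 186 CPM at 6 h, against 97.8, 120.2, 112 and 101 CPM at 3 h (0.75 ± 0.0889, adjusted p = 1.09e-05). Jun had averaged 166 ± 33.5 CPM at 0 h, below its 6 h level. Fos had averaged 280 ± 25.4 CPM at 0 h and was still below that at 6 h (-0.63 for 6 h minus 0 h, adjusted p = 2.36e-05). Atf3 changed by 0.69 ± 0.197 and Mafk by 0.33 ± 0.0995, and for Mafk the adjusted p was 0.0553 without 6 h replicate 3 and 0.002 to 0.0553 over all alternatives. Jun, Atf3 and Mafk are named after their values were seen. Junb, named likewise, fell at -0.82 ± 0.0829. None of Jun, Fos, Atf3 and Mafk overlapped between 6 h and 3 h.

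The transcript with the largest fall of all that the naming rule took was Mir155hg (chromosome 16, 84703167 to 84715245), the host transcript of miR-155, a microRNA known for its role in inflammatory myeloid cells. It had 1.06, 0.603, 1.21 and 0.291 CPM at 6 h, against 13.7, 13.1, 16.6 and 9.11 CPM at 3 h (-4.05 ± 0.334, adjusted p = 3.47e-07), and 0.0526 ± 0.0352 CPM at 0 h. The libraries measure the host transcript and not the mature microRNA. The mature sequences from RefSeq on GRCm38.p6 are shown to identify that microRNA, with the seed at bases 2 to 8 in capitals.
mmu-miR-155-5p: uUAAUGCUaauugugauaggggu
mmu-miR-155-3p: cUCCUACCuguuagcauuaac

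**Figure D5:**
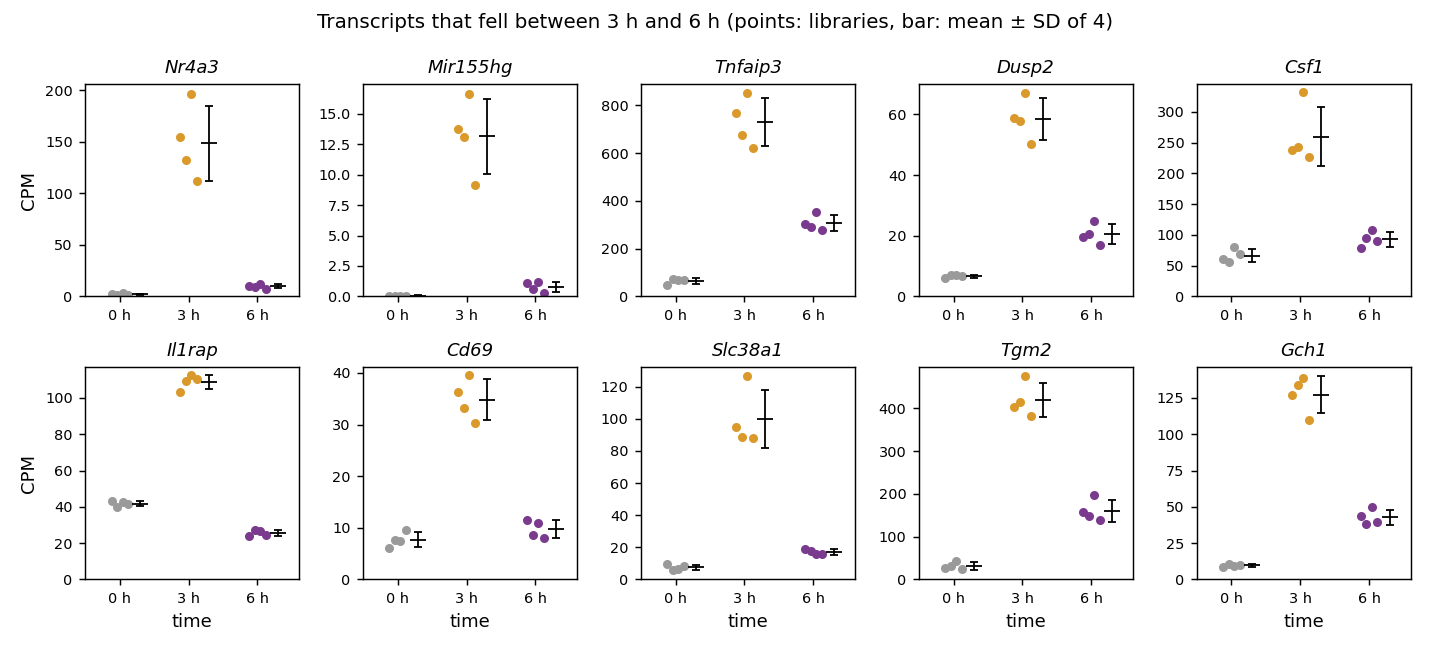
CPM of 10 transcripts that fell at 6 h against 3 h in each library at 0 h, 3 h and 6 h, with the mean and SD of 4 libraries as a bar beside the points. Each peaks at 3 h, and the 6 h points lie below the 3 h points in all 10, below the 0 h points for Il1rap, near them for Cd69 and above them for Mir155hg, Tnfaip3 and Tgm2.

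NF-kB subunits and their inhibitors receded from a raised level. NF-kB dimers are held in the cytoplasm by IkB proteins, whose genes NF-kB itself induces. Of 24 listed genes, all tested, 16 fell (66.7%) and 3 rose (12.5%), with a median of -0.61. Tnfaip3 (chromosome 10, 19000910 to 19015657), which codes the ubiquitin-editing inhibitor A20, had 303, 291, 353 and 276 CPM at 6 h, against 767, 674, 850.0 and 623 CPM at 3 h. The groups did not overlap, at -1.25 ± 0.131 (adjusted p = 3.19e-06), and 0 h had averaged 63.3 ± 12.0 CPM. Nfkbie, the gene of IkB epsilon, had 81.3, 72.4, 89.2 and 70.2 CPM at 6 h, against 186, 174, 205 and 160.2 CPM at 3 h (-1.21 ± 0.0857, adjusted p = 8.25e-08). Rel, the gene of the c-Rel subunit, had 243, 251, 244 and 233 CPM at 6 h, against 563, 522, 654 and 479.9 CPM at 3 h (-1.19 ± 0.0932, adjusted p = 2.03e-07). The subunit gene Nfkb1 changed by -0.83 ± 0.0706, but Rela and Relb, named after their values were seen, did not pass, at 0.00 ± 0.0708 and 0.052 ± 0.0716. The members that rose were Otulin at 0.44 ± 0.0829, Traf2 at 0.29 ± 0.0704 and the kinase gene Chuk at 0.15 ± 0.0573. For Chuk, the adjusted p was 0.0545 to 0.132 when any 1 of 3 h replicate 3, 3 h replicate 4, 6 h replicate 2 and 6 h replicate 3 was left out, and 0.00192 to 0.132 over all alternatives.

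The promoters of Tnfaip3, Nfkbie and Rel are shown because these genes are described above and hold the NF-kB motif searched for, GGGNNNTTCC on either strand. It was in 9 of 19 listed genes with a window (47.4%) and in 5.31% of all genes with one. The stretches are chr10:19015411-19015457, minus strand for Tnfaip3, chr17:45555559-45555638, plus strand for Nfkbie and chr11:23771016-23771095, minus strand for Rel, all GRCm38.p6, with the match in capitals.
Tnfaip3: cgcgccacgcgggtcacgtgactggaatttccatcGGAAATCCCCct
Nfkbie: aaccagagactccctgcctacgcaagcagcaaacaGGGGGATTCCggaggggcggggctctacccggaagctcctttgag
Rel: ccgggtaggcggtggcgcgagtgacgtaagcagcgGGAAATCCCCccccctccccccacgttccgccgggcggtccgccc
In Nfkbie the letters run forward on the strand of the gene, and in Tnfaip3 and Rel they are read on the opposite strand.

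Feedback inhibitors of MAP kinases fell too. The MAP kinase list had 14 tested genes, of which 11 fell (78.6%) and 0 rose, with a median of -0.93. Dusp2, a nuclear phosphatase of these kinases, had 19.7, 20.6, 24.8 and 17.1 CPM at 6 h, against 58.7, 58.0, 67.1 and 50.2 CPM at 3 h (-1.51 ± 0.113, adjusted p = 1.31e-07), and 6.66 ± 0.504 CPM at 0 h. Spred2, an inhibitor of Ras signalling, had 10.18, 9.64, 8.45 and 8.85 CPM at 6 h, against 25.2, 21.4, 22.7 and 23.2 CPM at 3 h (-1.32 ± 0.101), and had not passed at 3 h against 0 h. Dusp6 changed by -0.87 ± 0.104 and Rasa2, a GTPase activator for Ras, by -0.92 ± 0.0967. Dusp6 was already lower at 3 h than at 0 h (-0.67, adjusted p = 6.32e-05), with 426 ± 65.6 CPM at 0 h and 267 ± 23.6 CPM at 3 h. The list summed to 1272 to 1385 CPM at 0 h, 1165 to 1290 CPM at 3 h and 709 to 875 CPM at 6 h, from library totals alone. As a sum it was thus not raised at 3 h. Of 21 listed genes whose proteins control the decay of inflammatory messenger RNA 3 rose and 3 fell (14.3% each). These shares are under the 20.5% and 20.3% of all genes tested, and 7 members rose when libraries were scaled by totals alone. Zc3h12a, the endonuclease regnase 1, had 114, 118, 146 and 104 CPM at 6 h, against 317, 316, 359 and 269.7 CPM at 3 h (-1.39 ± 0.104, adjusted p = 1.34e-07). Zfp36l2 and Khsrp, which bind AU-rich RNA and promote its decay, rose at 0.45 ± 0.0680 and 0.40 ± 0.0550, and Elavl1, the HuR protein known to stabilise such RNA, rose at 0.42 ± 0.0589.

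Cytokine transcripts mostly declined, and a few did not. Of 30 listed cytokines, 23 were tested, 15 fell (65.2%), 9 at least 2-fold, and 3 rose (13.0%), with a median of -0.73. Csf1, the growth factor of macrophages, had 78.6, 94.7, 108 and 90.1 CPM at 6 h, against 238, 242, 332 and 227 CPM at 3 h (-1.49 ± 0.137, adjusted p = 9.79e-07). Il1a had 5.10, 3.79, 6.54 and 3.57 CPM at 6 h, against 21.2, 24.1, 31.2 and 15.1 CPM at 3 h (-2.27 ± 0.230, adjusted p = 2.44e-06). Il1b changed by -0.88 ± 0.0756, Tnf by -1.20 ± 0.143 and Tnfsf14, the lymphotoxin-related ligand LIGHT, by -0.82 ± 0.0786, none with overlap. Il1b had averaged 1433 ± 72.3 CPM at 0 h and was below that at 6 h (-0.34 for 6 h minus 0 h, adjusted p = 0.00116). The risers were Il10, Osm and Il36g. Il10, the anti-inflammatory cytokine, had 9.35, 6.56, 9.42 and 4.63 CPM at 6 h, against 4.64, 4.85, 4.11 and 2.32 CPM at 3 h (0.91 ± 0.272), with overlap between the groups, and the adjusted p was 0.0518 without 6 h replicate 3 and 0.00197 to 0.0518 over all alternatives. Osm had 90.5, 88.1, 107 and 91.1 CPM at 6 h, against 70.4, 79.4, 69.7 and 65.6 CPM at 3 h (0.40 ± 0.0933), and Il36g changed by 0.26 ± 0.0816, for which the adjusted p was 0.0648 without 6 h replicate 3 and 0.00143 to 0.0648 over all alternatives. Without 6 h replicate 3, 1 member rose.

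Chemokines were less uniform. Of 24 listed ligands 13 were tested, 6 fell (46.2%) and 0 rose. Cxcl16, a chemokine tethered to the membrane, had 1.64, 1.45, 2.57 and 1.38 CPM at 6 h, against 10.4, 7.83, 10.5 and 6.75 CPM at 3 h (-2.33 ± 0.239, adjusted p = 2.7e-06). Ccl4 changed by -0.86 ± 0.143, but its neighbour Ccl3 had 442, 426, 561 and 335 CPM at 6 h, against 314, 341, 423 and 231 CPM at 3 h, overlapped and did not pass at 0.43 ± 0.169 (adjusted p = 0.0568, and 0.00349 to 0.192 over the alternatives, of which several let it pass as a rise). Cxcl2, a ligand of Cxcr2, did not pass either, with 210.2, 189.9, 271 and 165 CPM at 6 h, against 245, 225, 326 and 168 CPM at 3 h (-0.21 ± 0.173, adjusted p = 0.374). Receptors that guide leukocytes fell in 16 of 26 cases (61.5%) and rose in 3 (11.5%). Gpr84, a receptor for medium-chain fatty acids, changed by -1.07 ± 0.0889, the complement receptor gene C5ar1 by -0.70 ± 0.0663 and Fpr1 by -0.62 ± 0.0747. Besides Cxcr3, the risers were Hcar2, a receptor for nicotinic acid and ketone bodies, at 0.71 ± 0.136, and P2ry2, a nucleotide receptor, at 0.33 ± 0.101, for which the adjusted p was 0.0543 to 0.0598 when any 1 of 3 h replicate 2 and 6 h replicate 3 was left out, and 0.000329 to 0.0598 over all alternatives.

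Il1rap and Il1r2, of the receptors for interleukin 1, fell below the unstimulated level, and the receptor antagonist gene Il1rn fell but stayed above it. Il1rap (chromosome 16, 26581704 to 26730117), the shared signalling chain, had 24.1, 27.1, 26.9 and 24.7 CPM at 6 h, against 104, 109, 113 and 110.3 CPM at 3 h (-2.08 ± 0.0583, adjusted p = 4.75e-11). The 4 libraries of each time were close together, and 0 h averaged 41.8 ± 1.51 CPM, above the 6 h level (-0.70 for 6 h minus 0 h, adjusted p = 9.05e-08). Il1r2, the decoy receptor, had 87.0, 81.7, 91.0 and 90.1 CPM at 6 h, against 280.5, 304, 321 and 285 CPM at 3 h (-1.77 ± 0.0933, adjusted p = 5.82e-09), and fell at each step, with 741 ± 111 CPM at 0 h. Il1rn had 697, 731, 803 and 702 CPM at 6 h, against 1665, 1859.7, 1988 and 1619.9 CPM at 3 h (-1.28 ± 0.0692), with 307 ± 12.1 CPM at 0 h (1.26 for 6 h minus 0 h, adjusted p = 1.46e-09). In the list of cytokine receptors, JAK, STAT and SOCS genes, 13 of 29 fell (44.8%) and 7 rose (24.1%). Il4ra changed by -1.10 ± 0.0728, Csf2rb, the shared chain of the receptors for GM-CSF and interleukins 3 and 5, by -0.95 ± 0.0612, and the feedback inhibitor gene Socs3, named after its value was seen, by -1.68 ± 0.134.

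Cd14 and most costimulatory molecules that passed were lower at 6 h. Cd14, the co-receptor for lipopolysaccharide, had 546, 482, 596 and 404 CPM at 6 h, against 1302, 1319, 1357 and 1109 CPM at 3 h (-1.33 ± 0.110, adjusted p = 3.47e-07). The Toll-like receptor list as a whole had 8 of 20 fall (40.0%) and 7 rise (35.0%), and 8 and 9 with library totals alone. Myd88, the shared adaptor, and Irak3, a brake on it, changed by -0.76 ± 0.0669 and -0.85 ± 0.0689. Unc93b1, which carries nucleic acid sensors to the endosome, rose at 0.54 ± 0.0501. Of 22 tested costimulatory and inhibitory surface molecules 13 fell (59.1%) and 3 rose (13.6%). Cd69, an early activation antigen, had 11.48, 8.54, 10.9 and 7.98 CPM at 6 h, against 36.2, 33.1, 39.5 and 30.3 CPM at 3 h (-1.84 ± 0.148, adjusted p = 2.77e-07). Icosl had 228, 228, 240.1 and 219 CPM at 6 h, against 492, 487, 553 and 446 CPM at 3 h (-1.11 ± 0.0622, adjusted p = 8.63e-09), and the lectin receptor gene Clec4e changed by -1.23 ± 0.0791. The 3 risers were Pdcd1lg2, the PD-1 ligand PD-L2, with 11.55, 12.7, 15.1 and 12.9 CPM at 6 h, against 6.75, 6.38, 8.51 and 6.37 CPM at 3 h (0.90 ± 0.202), Clec4d at 0.39 ± 0.0753 and Lilrb4a at 0.28 ± 0.105. For Lilrb4a, whose copy Lilrb4b shares reads, the adjusted p was 0.0546 to 0.143 when any 1 of 3 h replicate 1, 3 h replicate 2, 3 h replicate 4, 6 h replicate 1, 6 h replicate 2 and 6 h replicate 3 was left out, and 0.0028 to 0.143 over all alternatives. The number of this list that rose was 5 without 3 h replicate 3 or 6 h replicate 4, and 6 with library totals alone or by limma voom.

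Class II genes fell in part. Of 10 tested class II genes 5 fell (50%) and 0 rose. H2-Eb1 had 1.58, 1.70, 2.41 and 2.22 CPM at 6 h, against 9.02, 10.8, 13.4 and 9.22 CPM at 3 h (-2.42 ± 0.184, adjusted p = 1.66e-07), and 1.07 ± 0.167 CPM at 0 h. Cd74, the invariant chain, had 16.6 ± 1.23 CPM at 6 h and 24.1 ± 2.97 CPM at 3 h (-0.54 ± 0.157). These levels are low, and B cell markers summed to 119.8 to 520.0 CPM at 6 h and 131 to 683 CPM at 3 h, nearly all of it Ighm, while Ms4a1 stayed under 1 CPM. Dendritic cell markers summed to 329 to 509 CPM at 6 h and 289 to 483 CPM at 3 h, nearly all of it Itgax. Their part in the class II result was not tested.

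Amino acid transporters differed in direction. Slc38a1 (chromosome 15, 96571418 to 96642913), a glutamine transporter, had 19.2, 17.9, 15.6 and 15.7 CPM at 6 h, against 95.0, 88.9, 126 and 88.2 CPM at 3 h (-2.54 ± 0.142, adjusted p = 8.62e-09). Slc7a1, which imports arginine, had 19.2, 25.2, 15.8 and 19.7 CPM at 6 h, against 48.5, 52.2, 49.8 and 45.4 CPM at 3 h (-1.29 ± 0.120), and Slc7a6 changed by -2.18 ± 0.363. Slc3a2, the heavy chain that several amino acid exchangers need, rose, with 582, 551, 682 and 477 CPM at 6 h, against 274, 305, 318 and 263 CPM at 3 h (0.98 ± 0.0950, adjusted p = 1.51e-06). Of 27 tested genes linked to the stress factor ATF4, 7 rose (25.9%) and 10 fell (37.0%). Atf4 changed by 0.75 ± 0.101 and its target Atf5 by 1.28 ± 0.109, but Asns, asparagine synthetase, by -0.43 ± 0.0985. Chac1, another target, which degrades glutathione, had 10.18, 11.9, 13.0 and 12.3 CPM at 6 h, against 14.6, 14.8, 13.7 and 13.9 CPM at 3 h (-0.27 ± 0.0933), and the adjusted p was 0.0568 to 0.169 when any 1 of 3 h replicate 1, 3 h replicate 2, 3 h replicate 3, 3 h replicate 4, 6 h replicate 1 and 6 h replicate 2 was left out, and 0.022 to 0.169 over all alternatives. Its change was -0.17 without 6 h replicate 1. Of 20 enzymes that load transfer RNA 9 fell (45%), among them Yars at -0.997 ± 0.0919 and Nars at -0.58 ± 0.0624, and 3 rose: Sars at 0.56 ± 0.0779, Dars at 0.37 ± 0.0666 and Qars at 0.24 ± 0.0798. For Qars, the adjusted p was 0.0666 without 6 h replicate 3 and 0.00579 to 0.0666 over all alternatives.

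Gch1, which starts the synthesis of the cofactor of nitric oxide synthase, had 43.6, 38.4, 49.7 and 39.3 CPM at 6 h, against 127, 134, 139 and 109.9 CPM at 3 h (-1.57 ± 0.0981, adjusted p = 2.41e-08). Of 22 tested genes of extracellular proteases, their inhibitors and matrix proteins 6 fell and 6 rose (27.3% each), with a median of -0.03. Thbs1, thrombospondin 1, had 1766, 2161, 1885 and 1630.4 CPM at 6 h, against 5008, 6045, 5716 and 4718 CPM at 3 h (-1.53 ± 0.141), and Tgm2, a transglutaminase, had 158, 148, 197 and 138 CPM at 6 h, against 403, 415, 475 and 383 CPM at 3 h (-1.39 ± 0.155). Plau, urokinase, changed by -1.55 ± 0.107 and its receptor Plaur by 0.34 ± 0.0620, in opposite directions. Lipid mediator genes changed one by one: Lta4h, which makes leukotriene B4, changed by -1.05 ± 0.0593 and Cyp4f18, which inactivates it in mouse neutrophils, by -0.69 ± 0.0808. In that list of 20 tested genes 8 fell (40.0%) and 5 rose (25.0%), and 7 and 7 with library totals alone.

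Other steep falls came from genes outside these functions. Entpd3, an enzyme that cleaves extracellular nucleotides, had 4.15, 4.08, 3.78 and 4.55 CPM at 6 h, against 19.7, 21.4, 29.3 and 28.6 CPM at 3 h (-2.58 ± 0.178). Arl15, a small GTPase, had 4.42, 3.55, 3.89 and 5.06 CPM at 6 h, against 20.8, 21.1, 21.5 and 24.3 CPM at 3 h (-2.37 ± 0.117). Both were higher at 3 h than at 0 h, by log2 values of 1.95 and 1.51. Cass4, an adhesion adaptor, had not passed at 3 h against 0 h (0.07 ± 0.221, adjusted p = 0.795) and had 10.7, 11.1, 15.4 and 12.6 CPM at 6 h, against 52.9, 58.2, 69.3 and 63.1 CPM at 3 h (-2.29 ± 0.239). Tbc1d4, which acts on glucose transporter traffic in muscle and fat, had 2.67, 2.55, 2.18 and 2.08 CPM at 6 h, against 10.3, 11.3, 11.6 and 10.0 CPM at 3 h (-2.19 ± 0.160), and the low-level genes Krt81 and Amz1 changed by -2.28 ± 0.152 and -2.33 ± 0.213. Orm1, an acute phase glycoprotein stored in neutrophil granules, had 11.55, 9.39, 9.38 and 9.33 CPM at 6 h, against 40.2, 44.2, 38.8 and 43.3 CPM at 3 h (-2.07 ± 0.0929, adjusted p = 1.3e-09).

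Transcripts made during neutrophil formation were mostly lower at 6 h than at 3 h. Summed over each granule list, they had also been lower at 3 h than at 0 h. All 9 primary granule genes were tested, 7 fell (77.8%) and 0 rose, with a median of -1.29. Mpo, myeloperoxidase, had 11.9, 7.52, 2.92 and 5.54 CPM at 6 h, against 53.4, 31.8, 18.2 and 29.3 CPM at 3 h (-2.24 ± 0.385, adjusted p = 0.000307), with replicate 1 highest at both times. Elane, neutrophil elastase, had 8.50, 4.93, 2.22 and 4.52 CPM at 6 h, against 30.2, 18.8, 11.4 and 16.6 CPM at 3 h (-1.92 ± 0.361), also highest in replicate 1. Elane had averaged 60.6 ± 20.3 CPM at 0 h and had already fallen at 3 h (-1.65 for 3 h minus 0 h, adjusted p = 0.000651). In the list of 20 genes for secondary and tertiary granules, 12 fell (60%) and 3 rose (15.0%). Ngp had 9914, 9528, 8990.2 and 9284 CPM at 6 h, against 18075, 22534, 18582 and 19726 CPM at 3 h (-1.07 ± 0.0634, adjusted p = 1.45e-08), and Ltf, lactoferrin, changed by -0.76 ± 0.0566. The risers were Chil1 at 0.54 ± 0.0622, the integrin gene Itgam at 0.40 ± 0.0544 and the protease gene Mmp25 at 0.17 ± 0.0532. From library totals alone, primary granule genes summed to 1562 to 1729 CPM at 0 h and 1193 to 1408 CPM at 3 h. At 6 h they summed to 1069 to 1260 CPM. Secondary and tertiary granule genes summed to 84044 to 87300 CPM at 0 h and 58254 to 67531 CPM at 3 h. At 6 h these summed to 45063 to 49493 CPM. Of 13 red cell precursor markers 11 fell as well (84.6%, against 20.3% of all genes tested), all at least 2-fold (against 5.37%). Their sum had been 140 to 385 CPM at 0 h, against 23.6 to 63.6 CPM at 3 h and 11.5 to 26.5 CPM at 6 h. The part of these markers in the granule result was not tested. Of 32 cell cycle genes 12 fell (37.5%) and 1 rose, Bub1 at 0.79 ± 0.173, but 7 fell and 3 rose without 3 h replicate 1.

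Of the neutrophil effector genes, S100a8 did not pass, with 10997, 10369, 12083 and 10921 CPM at 6 h, against 11430.3, 12978, 10888 and 12072 CPM at 3 h (-0.09 ± 0.0885, adjusted p = 0.429). S100a9 changed by -0.27 ± 0.0861, and the adjusted p was 0.0555 to 0.128 when any 1 of 3 h replicate 1, 3 h replicate 2, 3 h replicate 4, 6 h replicate 2 and 6 h replicate 3 was left out, and 0.0126 to 0.128 over all alternatives. Ncf1, a cytosolic subunit of the NADPH oxidase, had 1253, 1189.7, 1217 and 1217 CPM at 6 h, against 2362, 2442, 2318 and 2261 CPM at 3 h (-0.94 ± 0.0493, adjusted p = 5.3e-09), and the membrane subunit gene Cybb changed by -0.64 ± 0.0777. The proton channel gene Hvcn1, which balances the charge that the oxidase moves, rose instead, with 144, 139.6, 147 and 135 CPM at 6 h, against 108, 113, 98.6 and 98.9 CPM at 3 h (0.43 ± 0.0529, adjusted p = 1.48e-05). Hvcn1 had averaged 173 ± 1.78 CPM at 0 h and was still below that at 6 h (-0.29 for 6 h minus 0 h, adjusted p = 0.000262). Of 10 tested genes of the oxidase and the superoxide dismutases 5 fell (50%) and 4 rose (40%), and 3 and 5 with library totals alone. Without 3 h replicate 3 or 6 h replicate 2, 3 of them fell. Cd47, which protects cells from uptake, and the sialomucin gene Spn changed by -0.74 ± 0.0580 and -0.92 ± 0.0673. Housekeeping lists moved little: 60 of 66 ribosomal protein genes did not pass, with 5 risen (7.58%) and 1 fallen. The count of risers was 10 without 3 h replicate 1 or 6 h replicate 2, 2 without 3 h replicate 3 or 6 h replicate 1, 3 without 6 h replicate 3, and 16 with library totals alone. Of 47 nuclear respiratory chain genes 35 did not pass, with 5 risen (10.6%) and 7 fallen (14.9%).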

How the data were processed

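RNA sequencing of 12 Ics libraries (4 each at 6 h, 3 h and 0 h) was used. The authors deposited estimated counts per gene, made from length-scaled TPM per the deposited table's name, with kallisto 0.46.1 and GRCm38 named in the submitters' processing notes; other steps are not given in the sources used here. The deposited estimated counts were rounded to whole numbers. Genes with enough counts (filterByExpr of edgeR 4.0.16 in R 4.3.3, minimum count 10) were scaled by TMM and tested with edgeR's quasi-likelihood F test on all 12 libraries without a replicate term, with Benjamini-Hochberg adjustment. Alternatives used DESeq2 1.42.0 and limma 3.58.1. Marker sums use library totals alone. The fits were first tested on simulated data with 200 changed genes. The naming rule took, among genes that passed and averaged 5 CPM or more at the higher time, the top 20 rises and the top 20 falls; from every function list, the 4 members of lowest p and any 3 or fewer that passed against its majority; and a short fixed set. Genes with clone names or near 0 and some list members are not described. Genes outside the rule are marked as named after their values were seen. Some genes that the rule took are not reported here. Members and lists were chosen with earlier results of these data known.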

Additional observations from a re-analysis of the deposited data

Results flagged for a closer look

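Of 430 sets of 4 libraries examined, a gene's CPM or the depth at 1 time each, 23 held a library whose gap to the nearest other, divided by the range, was above Dixon's 95% critical value. That is 5.35%, and chance gives about 1 in 20. At 6 h a single library had the highest CPM, far from the rest, for Gtse1 (21.8 in replicate 1, 14.6 to 15.5 in the others), Herpud1 (93.3 in replicate 3, 81.0 to 82.3 in the others) and Nop58 (4.63 in replicate 1, 2.96 to 3.02 in the others). The same held at 6 h for Orm1 (11.55 in replicate 1, 9.33 to 9.39 in the others), Osm (107 in replicate 3, 88.1 to 91.1 in the others) and P2ry2 (75.4 in replicate 3, 60.8 to 62.6 in the others). The same held at 6 h for Stat2 (41.5 in replicate 2, 36.0 to 36.9 in the others). At 3 h a single library had the highest CPM, far from the rest, for Blvrb (17.2 in replicate 2, 14.2 to 14.4 in the others), Cd74 (28.5 in replicate 2, 22.1 to 23.0 in the others) and Csf1 (332 in replicate 3, 227 to 242 in the others). The same held at 3 h for Hspa1a (14.4 in replicate 1, 7.55 to 8.30 in the others) and Hsph1 (3.45 in replicate 1, 1.06 to 1.31 in the others). The same held at 3 h for Odc1 (67.2 in replicate 2, 55.9 to 57.3 in the others), Zfp36l2 (592 in replicate 4, 511 to 515 in the others) and mt-Co1 (1782 in replicate 2, 1482 to 1523 in the others). Nars was also flagged at 3 h (118.4 in replicate 1, 116.7 to 116.9 in the others), although all its libraries were close. At 6 h a single library had the lowest CPM, far from the rest, for Azin1 (251 in replicate 1, 278 to 283 in the others) and Lta4h (165 in replicate 3, 189.7 to 193 in the others). At 3 h a single library had the lowest CPM, far from the rest, for Ankrd37 (0.475 in replicate 3, 0.656 to 0.668 in the others), Chil1 (407 in replicate 4, 478 to 492 in the others) and Psmc5 (18.8 in replicate 3, 22.3 to 22.7 in the others). The same held at 3 h for Socs3 (131 in replicate 2, 191 to 201 in the others). In depth, 3 h replicate 3 was lowest, with 25372592 estimated counts.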

How the results depend on the processing

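The counts of genes that rose and fell stayed within 1.5 times of the values reported (3067 and 3050, and 524 and 806 at least 2-fold) under every alternative run. They were 3077 and 2964 with relative log expression scaling, 3904 and 2427 with library totals only, 3028 and 2625 with no expression filter, 3575 and 3670 at an adjusted p under 0.1, 3089 and 2654 with only the 8 libraries of 3 h and 6 h, 3154 and 2950 by DESeq2, and 2983 and 2909 by limma voom with quality weights. Leaving out 1 library gave 2753 to 3080 genes that rose and 2522 to 2807 that fell, and 497 to 592 and 702 to 826 at least 2-fold. The replicate numbers were not treated as a pairing in the main fit, since the labels tie them to no animal or culture. Libraries of the same number at 3 h and 6 h still deviated together, with correlations of 0.074 to 0.13. Those of different numbers gave -0.088 to 0.017, and each library correlated best with its own number. The main p-values leave this shared part out. With the replicate block 3161 genes rose and 3193 fell, 524 and 864 at least 2-fold. With library totals only, the median of all genes was 0.05 in place of -0.03. More members then rose than fell, or as many, in these lists where more had fallen in the main fit: respiratory chain (11 and 4), NADPH oxidase (5 and 3), Toll-like receptors (9 and 8), lipid mediators (7 and 7), complement (3 and 3), S100 proteins (1 and 0). Among named genes that had not passed, 5 passed as rises under at least 1 alternative that kept the threshold: Ccl3 (library totals only, no expression filter, replicate block at an adjusted p of 0.00349, limma voom, and without 3 h replicate 3 or 6 h replicate 4), Mvd (library totals only and without 3 h replicate 3), Srebf2 (library totals only), Txnrd1 (library totals only, replicate block, and without 6 h replicate 4) and Hspa1a (without 3 h replicate 1). Among values that had not passed, the sign turned for 5 genes: Fth1 was 0.0323 with library totals only and -0.138 to 0.0285 on leaving out 1 library, Srxn1 -0.116 to 0.185, Rela -0.0111 with limma voom and -0.0705 to 0.0541, Relb -0.0044 to 0.114 and Slc7a11 -0.184 to 0.00034; the cause was not tested. Genes under a few CPM rest on few counts, so their changes are the least precise.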

Other observations

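Genes of polyamine and arginine metabolism changed both ways. Of 16 tested genes 6 rose and 6 fell (37.5% each, against 20.5% and 20.3% of all genes tested). Odc1, which makes putrescine, had 38.9, 38.3, 41.4 and 33.4 CPM at 6 h, against 56.3, 67.2, 57.3 and 55.9 CPM at 3 h (-0.64 ± 0.0783, adjusted p = 1.47e-05). Azin1, which protects it from degradation, changed by -0.33 ± 0.0556. Sat1, which acetylates polyamines for export, had 782, 724, 821 and 757 CPM at 6 h, against 531, 608, 597 and 554 CPM at 3 h (0.43 ± 0.0561, adjusted p = 2.71e-05). The groups of these 3 genes did not overlap. Cytoskeletal genes also differed one from another: Ezr, which ties actin to the membrane, changed by -0.86 ± 0.0456, Lcp1, an actin bundler, by -0.32 ± 0.05003 and Arpc3 of the branching complex by -0.39 ± 0.0576, while the actin gene Actg1 changed by 0.33 ± 0.0458. Signalling genes of immune receptors did so too, with Pik3cg at -0.54 ± 0.0580 and Ptpn6 at -0.53 ± 0.0494, and Card9 at 0.68 ± 0.0630 and Plcg2 at 0.36 ± 0.0466. Card9 had averaged 173 ± 6.19 CPM at 0 h and was still below that at 6 h, with 104 ± 9.75 CPM.

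All 13 protein genes of the mitochondrial genome were tested, 7 fell (53.8%, against 20.3% of all genes tested) and 0 rose. mt-Co1 had 1308, 1319, 1353 and 1319.9 CPM at 6 h, against 1523, 1782, 1482 and 1515 CPM at 3 h (-0.25 ± 0.0682, adjusted p = 0.00907), and did not pass with library totals alone. Of the 13 genes, 3 fell with library totals alone and 4 without 3 h replicate 2 or 6 h replicate 1, and 1 rose without 3 h replicate 2 or with only the 8 libraries of 3 h and 6 h. Of 17 clock genes 4 rose (23.5%) and 3 fell (17.6%), near the 20.5% and 20.3% of all genes tested. Per2 had 25.0, 30.5, 30.3 and 25.4 CPM at 6 h, against 46.02, 53.4, 60.3 and 52.6 CPM at 3 h (-0.93 ± 0.116, adjusted p = 1.69e-05). Without 6 h replicate 2, 1 clock gene fell, and without 6 h replicate 4, 2 rose. Of 29 genes of ribosome biogenesis 8 fell (27.6%, against 20.3% of all genes tested) and 3 rose (10.3%, against 20.5%). Nop58, a part of the small nucleolar complexes, changed by -1.45 ± 0.185, while Nop2 and Nhp2 changed by 0.84 ± 0.113 and 0.997 ± 0.154. Without 3 h replicate 1, 6 h replicate 2 or 6 h replicate 4, or with library totals alone, 4 genes of that list fell.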
